A study of Mus musculus with 6 samples.

Results

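The telomere gene set comprised 39 genes, taken from the 49993 rows of the deposited count table by symbol, with all 39 symbols found. It held 10 end-binding genes (shelterin and the CST complex), 11 telomerase genes, 13 genes of recombination and fork repair, and 5 regulators. The libraries were made from mouse blastocysts by RNA-seq, 3 from embryos grown in vitro and 3 from embryos grown in vivo. All mothers were superovulated with PMSG (10 IU) and hCG (10 IU, given 48 h after PMSG) and mated naturally, then assigned at random to a group. For the in vitro group, fertilised zygotes were taken from oviducts 19 to 21 h after hCG, freed of cumulus cells with hyaluronidase and grown to blastocysts in KSOM medium at 37 °C and 5% CO2. For the in vivo group, blastocysts were obtained at day 3.5 by flushing the uterus. Embryos of both groups were picked by stage and morphology, and the labels give neither strain nor genotype, and do not say that libraries of a group came from separate litters. All p-values thus reflect only how far these particular samples vary, which may be technical.

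Telomeres are TTAGGG repeats that shorten when chromosome ends are replicated. Shelterin coats the repeats and hides them from DNA repair, while the CST complex ends extension and fills in the complementary strand. Telomerase, an enzyme that carries its own RNA template, adds repeats, and recombination between telomeres is an alternative route that cleavage-stage mouse embryos are known to use. The series title names Sirt6 and telomere shortening in culture, so the comparison asks which telomere genes differed between cultured and in vivo blastocysts.

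Sequences of 2 kinds bear on how the counts can be read. The first is the 5′ end of the telomerase RNA Terc, shown because its template lies almost at the first base of a transcript that had hardly any counts. It lies on the minus strand at chr3:96414734-96414833 of GRCm38, and the capitals, bases 3 to 10 of the transcript, mark a run of letters that pair with the telomere repeat, as does base 2 before it.
Terc: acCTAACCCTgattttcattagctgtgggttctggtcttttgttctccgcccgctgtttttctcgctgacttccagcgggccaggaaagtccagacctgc
The second is the stretch in which the coding sequences of Pot1a and Pot1b are most alike, shown because the mouse carries both copies of this end-binding gene and copies that are alike can share counts. Capitals mark the 17 of 150 bases that differ (bases 27 to 176 of each coding sequence, GENCODE M21 on GRCm38).
Pot1a: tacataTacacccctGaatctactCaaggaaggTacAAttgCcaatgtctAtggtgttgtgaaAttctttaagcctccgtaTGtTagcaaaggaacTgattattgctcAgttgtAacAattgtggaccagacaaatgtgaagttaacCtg
Pot1b: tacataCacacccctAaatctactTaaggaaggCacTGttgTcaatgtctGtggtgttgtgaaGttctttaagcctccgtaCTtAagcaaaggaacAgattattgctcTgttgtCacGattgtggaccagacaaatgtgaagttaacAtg
Over the whole coding sequence the copies were 78.9% identical, and their longest identical run was 41 bases. Of the 50-base words of the Pot1a transcript, 0% occurred in transcripts of any other gene, Pot1b included.

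The libraries differed widely within each group. Totals were 6918288 to 12735551 counts in vitro and 9174789 to 17643429 counts in vivo. In vivo replicate 3 stood apart from in vivo replicates 1 and 2, with Spearman correlations across genes of 0.786 and 0.793, while those replicates reached 0.942 with each other. Its share of 18S ribosomal RNA was 41.7%, against 16.7% and 22.2% in in vivo replicates 1 and 2, and 35.8% to 40.4% in the in vitro libraries. The in vitro libraries correlated with each other at 0.789 to 0.848. In vitro replicate 2 reached 0.873 and 0.857 with in vivo replicates 1 and 2, above its values of 0.848 and 0.824 within its own group. The libraries thus did not group by condition in these correlations. In vitro replicate 2 had 7494 counts of Xist and 1 count over 4 Y-linked genes, and was the only library without a Y chromosome signal. The labels name an inner cell mass as the source, blastocysts as the tissue and embryonic stem cells as the cell type, and trophectoderm markers were present in every library. In CPM, counts scaled by each library's normalised total, summed markers were 1430 to 2470 CPM in vitro and 793 to 1610 CPM in vivo for trophectoderm (12 genes), and 944 to 1900 CPM in vitro and 586 to 1170 CPM in vivo for primitive endoderm (14 genes). Those of epiblast (12 genes) were 824 to 1870 CPM in vitro and 1060 to 1310 CPM in vivo. All 14 primitive endoderm, 10 of 12 trophectoderm and 6 of 12 epiblast markers had a positive log2 fold change, in vitro over in vivo, and 0 of these passed edgeR's test, with 4, 3 and 1 at an unadjusted p below 0.05. DESeq2 called 3 primitive endoderm markers (Sox7, Foxa2 and Lama1) and 1 trophectoderm marker (Id2), all higher in vitro, and limma-voom called Sox7, Lama1 and Id2. Without the filter on low counts edgeR called these 4 genes and Gata4, and these genes are named here after their values were seen. Blood markers summed to at most 5.25 CPM and cumulus markers to at most 1.05 CPM in any library, with 4 of 7 and 6 of 8 of these genes at 0 throughout. Uterine and oviduct markers summed to 9.67 to 46.8 CPM in vitro and 10.6 to 35.5 CPM in vivo. Of these, 2 could be tested, with opposite signs. Muc1 was at 0.176, 2.65 and 0.131 CPM in vitro and 10.4, 4.65 and 15.5 CPM in vivo, without overlap (log2 fold change −3.29 ± 1.27, adjusted p = 0.440, edgeR). Wfdc2 overlapped between the groups (1.05 ± 0.75, adjusted p = 0.674, edgeR). Both are named after their values were seen. The part of cell makeup in the results below was not tested, and in bulk samples fewer cells of a type and less RNA per cell cannot be told apart.

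No telomere gene passed the test between the groups. Of the 39 genes, 37 had enough counts to be tested, and edgeR's quasi-likelihood test called 0 of them at an adjusted p below 0.05 (Benjamini-Hochberg over 14301 genes), as it called 0% of all genes. At an unadjusted p below 0.05 stood 2 of the 37, Naf1 and Atrx, against 10.2% of all genes tested. Both were higher in vitro, as were 5.11% of all genes tested at that threshold, while 5.08% were lower. DESeq2 called 0 members (2.99% of all genes with an adjusted p), and limma-voom with sample quality weights called Atrx alone (0.713% of all genes). Without the filter on low counts and in its newer form, edgeR called 0 members (1.4% and 0.021% of all genes). In 3 members, Naf1, Atrx and Wrap53, the groups did not overlap, which is 8.11% of the 37, against 19.3% of all genes tested. Naf1 and Atrx were the higher ones, against 9.27% of all genes, and Wrap53 the lower one, against 10% of all genes.

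The role groups differed little in their medians. The median log2 fold change, in vitro over in vivo, was 0.17 over the 37 members, with 24 positive and 13 negative, against −0.01 over all genes tested, of which 49.8% were positive. It was 0.18 for the end-binding genes (6 positive, 3 negative) and 0.04 for the telomerase genes (5 positive, 5 negative). It was 0.36 for the recombination genes (10 positive, 3 negative) and 0.58 for the regulators (3 positive, 2 negative). With libraries scaled by their totals alone, which shifted the median of all genes to −0.31, the medians were −0.04, −0.27, −0.04 and 0.33 in the same order of groups. Relative to that shift every role median was above the median of all genes. Without in vitro replicate 1 the end-binding median was −0.22, and without in vivo replicate 2 the telomerase median was −0.17. The regulator median was −0.19 with a stricter filter, which tested fewer genes, and 0.19 without in vitro replicate 3.

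**Figure D1:**
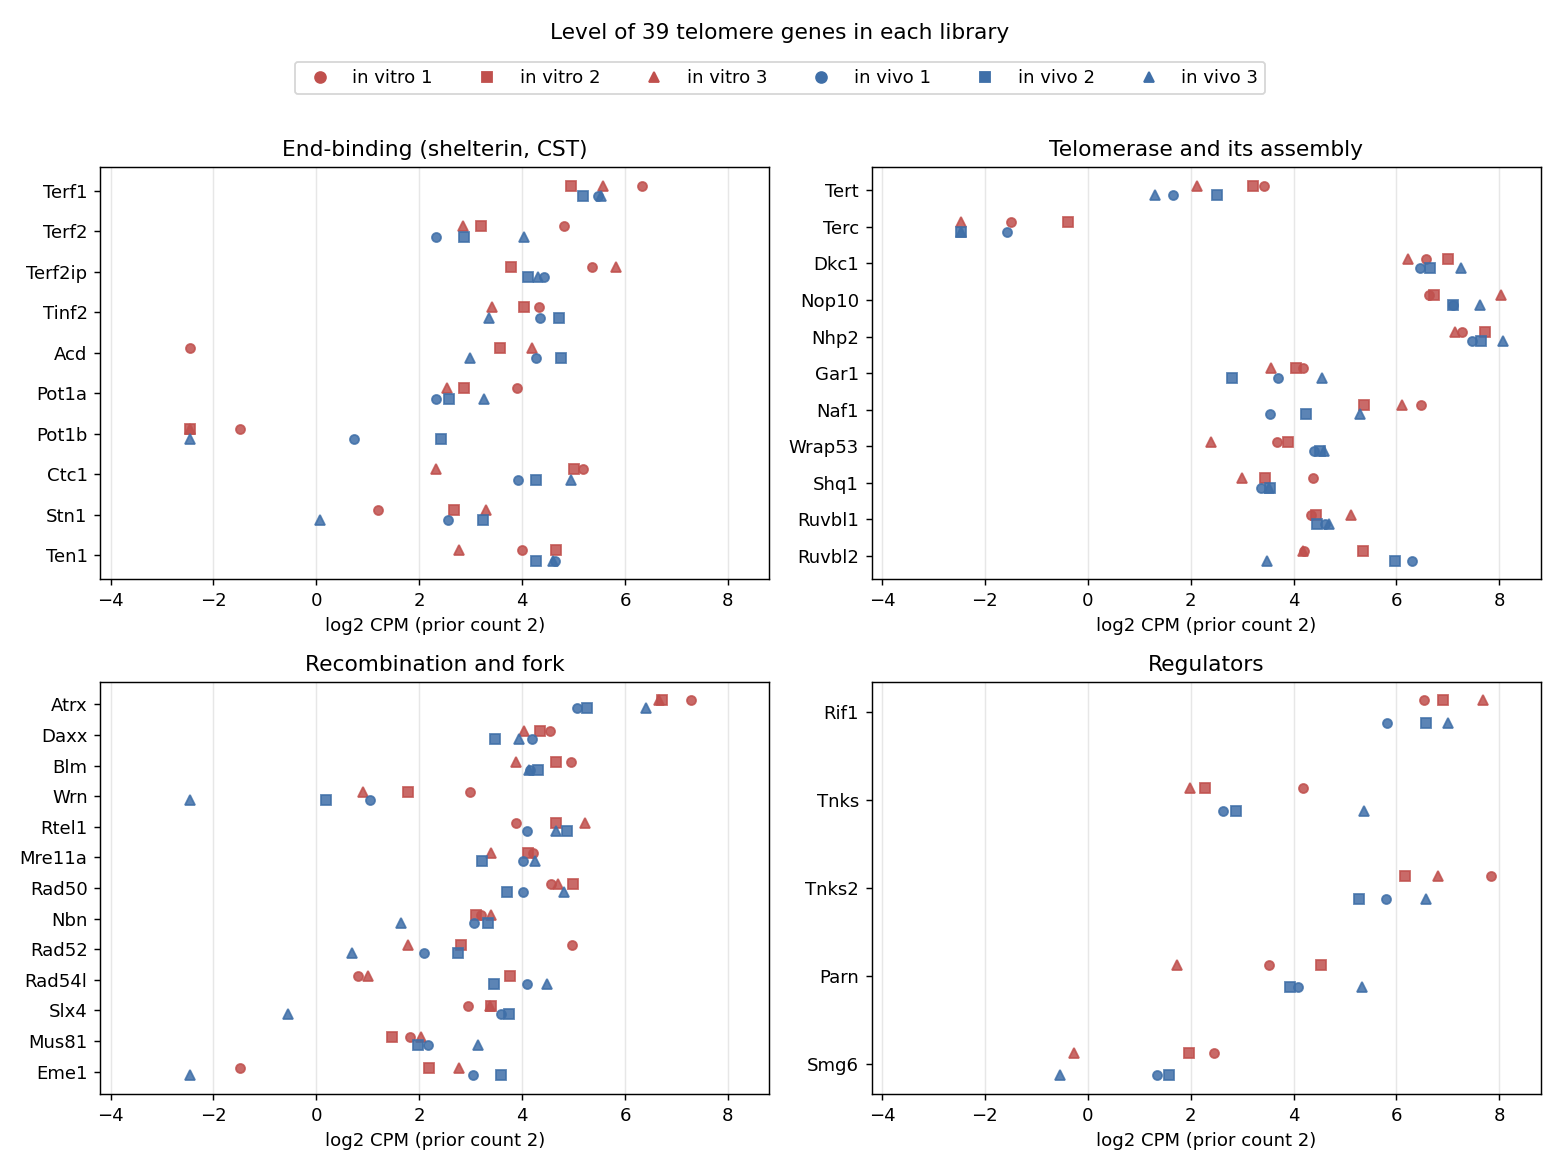
Each row is a gene and each point a library, with log2 CPM (prior count 2) on the horizontal axis, in vitro libraries in red above in vivo libraries in blue, and a symbol per replicate. The points of the groups overlap in every gene except Naf1, Atrx and Wrap53, and isolated points at the left are genes with few or no counts in that library.

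Among the shelterin genes, Terf1 and Terf2 encode the proteins that bind duplex telomere repeats. Terf1 was at 80.4, 30.6 and 47.1 CPM in vitro and at 44.3, 36.1 and 46.0 CPM in vivo. The in vitro values lay on both sides of the narrow in vivo range, and the log2 fold change was 0.32 ± 0.42 (SE, adjusted p = 0.842, edgeR). With scaling by totals alone it was −0.04, still above the median of all genes, which that scaling shifted to −0.31. Terf2 was at 27.7, 8.96 and 7.06 CPM in vitro and at 4.86, 7.13 and 16.3 CPM in vivo, with its highest values in in vitro replicate 1 and in vivo replicate 3. Its log2 fold change was 0.62 ± 0.76 (adjusted p = 0.822, edgeR) and −0.23 without in vitro replicate 1. Terf2ip encodes RAP1, the partner of the Terf2 product. It had the smallest p of this group, at 41.1, 13.7 and 56.6 CPM in vitro and 21.3, 17.2 and 19.6 CPM in vivo. Here in vitro replicates 1 and 3 lay above all in vivo libraries and in vitro replicate 2 below them (log2 fold change 0.94 ± 0.53, adjusted p = 0.591, edgeR, and 0.50 as log2 fold change without in vitro replicate 3).

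The genes that link shelterin to the overhang overlapped between the groups. Tinf2, whose product bridges the duplex binders, averaged 15.6 ± 4.82 CPM in vitro and 18.9 ± 8.20 CPM in vivo (SD, n = 3 each). Acd, which encodes TPP1, the recruiter of telomerase, had 0, 160 and 139 counts in vitro and 243, 334 and 108 counts in vivo. In vitro replicate 1 had no count of Acd, which allows up to 0.527 CPM, and the other in vitro libraries lay within the in vivo range. The log2 fold change of Acd was −0.83 ± 1.20 (adjusted p = 0.861, edgeR), and −0.25 without in vitro replicate 1. Of the 50-base words of Tinf2 and Acd, 35.9% and 26.0% occur on the opposite strand in transcripts of other genes. The library kit does not mark strand, so part of the reads of both genes is ambiguous. Pot1a, a binder of the telomere overhang, was at 14.8, 7.13 and 5.62 CPM in vitro and 4.86, 5.77 and 9.35 CPM in vivo (log2 fold change 0.46 ± 0.72, adjusted p = 0.872, edgeR). This value was −0.06 without in vitro replicate 1.

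Pot1b, the other copy, which limits resection of the end in mice, had 1, 0 and 0 counts in vitro and 19, 65 and 0 counts in vivo. Nearly all its counts came from in vivo replicates 1 and 2, and it had too few to pass edgeR's filter. The summed counts gave an in vivo over in vitro ratio of 57.8 with a 95% exact counting interval of 10.1 to 2310, which covers counting error only. DESeq2 gave an adjusted p of 0.192, or 0.0361 without in vivo replicate 3, in a fit that called 918 genes. In vivo replicate 3 had 0 counts like in vitro replicates 2 and 3, so the groups overlapped. The row of Pot1b in the table covers chromosome 17 and a fix patch, and that of Daxx lies on 4 reference sequences, chromosome 17 and its alternative sequences. Reads that match several such sequences may have been left out in counting, so the levels of both genes are uncertain.

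The 3 CST genes overlapped between the groups. Ctc1 was at 36.2, 31.9 and 4.84 CPM in vitro and 14.98, 19.0 and 30.8 CPM in vivo, and Stn1 at 2.11, 6.17 and 9.67 CPM in vitro and 5.73, 9.30 and 0.863 CPM in vivo. Ten1, the smallest CST subunit, was at 15.8, 25.0 and 6.67 CPM in vitro and 24.6, 19.2 and 24.2 CPM in vivo. Its log2 fold change was −0.52 ± 0.55 (adjusted p = 0.799, edgeR), and between −1.03 and −0.15 with each library left out. Per length, in TPM (shares scaled by gene length), Terf1 and Ten1 were the highest end-binding genes in both groups. TPM was taken over all rows, 18S ribosomal RNA included, and without the scaling used for CPM. The share of that RNA differed between libraries, so spreads and group differences in TPM can depart from those in CPM. Terf1 was at 26.8 ± 12.2 TPM in vitro and 23.9 ± 6.21 TPM in vivo, and Ten1 at 26.0 ± 18.03 TPM in vitro and 38.8 ± 11.3 TPM in vivo (SD, n = 3 each), so their order is not separated by the spread. Stn1 was lowest in vitro at 3.34 ± 1.91 TPM, and Terf2 was lowest in vivo at 2.73 ± 0.986 TPM, with Pot1b not ranked.

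Tert, the reverse transcriptase, was at 10.5, 9.04 and 4.18 CPM in vitro and 2.98, 5.53 and 2.30 CPM in vivo, from 60, 123 and 32 counts in vitro and 38, 69 and 32 counts in vivo. In vitro replicates 1 and 2 lay above all in vivo libraries, and in vitro replicate 3 lay within their range. Its log2 fold change of 1.13 ± 0.84 did not pass (adjusted p = 0.688, edgeR). It was 0.78 with scaling by totals alone and 0.89 to 1.57 with each library left out. Terc had 1, 8 and 0 counts in vitro and 2, 0 and 0 counts in vivo, too few to pass edgeR's filter. The summed counts, 9 in vitro and 2 in vivo, had an in vitro over in vivo ratio of 6.53 (counting interval 1.35 to 62.2). With 8 of the 9 in vitro counts in replicate 2, the ratio rests on that library. Mature Terc carries no poly(A) tail, and the labels do not say whether cDNA was primed on poly(A).

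Transcripts of 3 H/ACA core proteins, which bind Terc as well as small nucleolar RNAs, had the highest TPM of the members ranked. Nop10 was at 286 ± 134 TPM in vitro and 319 ± 28.1 TPM in vivo, and Nhp2 at 218 ± 79.0 TPM in vitro and 288 ± 14.3 TPM in vivo (SD, n = 3 each). Dkc1, the pseudouridine synthase dyskerin, followed at 48.1 ± 19.7 TPM in vitro and 56.0 ± 1.16 TPM in vivo. In CPM, Dkc1 was at 95.7, 127 and 74.5 in vitro and at 87.7, 100.4 and 152 in vivo, with overlapping groups (log2 fold change −0.19 ± 0.35, adjusted p = 0.894, edgeR). The in vivo SD in CPM was 34.2 for Dkc1 and 48.5 for Nhp2, so their small in vivo spread held in TPM only. Gar1, which encodes the last core protein to join, was lower, at 16.7 ± 5.09 TPM in vitro and 15.7 ± 6.24 TPM in vivo. Tert was at 2.65 ± 1.26 TPM in vitro and 1.33 ± 0.749 TPM in vivo, below these core genes in both groups.

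Naf1, the assembly factor that occupies the place of Gar1 in the immature particle, was higher in every in vitro library. It was at 88.3, 40.9 and 69.1 CPM in vitro and at 11.5, 18.8 and 38.8 CPM in vivo. In vitro replicate 2 and in vivo replicate 3 lay close together at the border. Naf1 had a log2 fold change of 1.52 ± 0.52 (unadjusted p = 0.0167, adjusted p = 0.409, edgeR), 2.13 without in vivo replicate 3 and 1.18 without in vivo replicate 1. DESeq2 gave an adjusted p of 0.133, and 0.00291 without in vivo replicate 3, in a fit that called 918 genes. The adjusted p by limma-voom was 0.0653, and the range over all alternatives was 0.00291 to 0.869. The CPM ratio of Naf1 to Gar1 was 4.93, 2.49 and 5.94 in vitro and 0.89, 2.75 and 1.67 in vivo, which overlapped. The gene spans bases 66859943 to 66890564 of chromosome 8, plus strand, and 7.82% of its 50-base words also occur in transcripts of Gm2027, so a small part of its reads is ambiguous.

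Wrap53, whose product carries telomerase RNA to Cajal bodies, was lower in every in vitro library. It was at 12.6, 14.7 and 5.10 CPM in vitro and at 20.8, 22.8 and 23.9 CPM in vivo. The in vivo libraries were close to each other, in vivo replicate 3 included, and the in vitro libraries were not. Wrap53 had a log2 fold change of −1.05 ± 0.55 (unadjusted p = 0.0853, adjusted p = 0.548, edgeR) and lay between −1.36 and −0.71 with each library left out. Its position is chromosome 11, bases 69561754 to 69580250, minus strand.

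**Figure D2:**
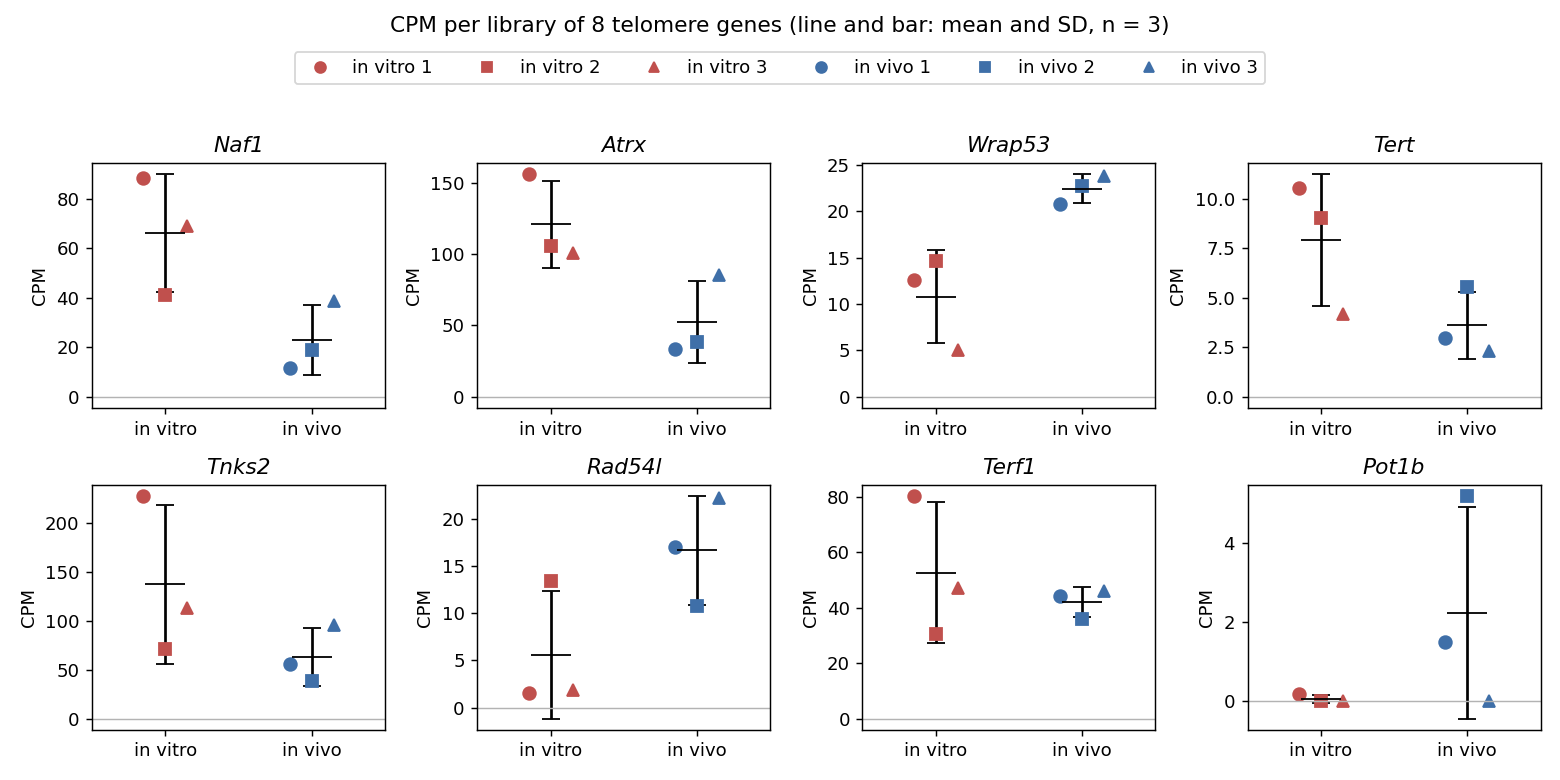
Points are CPM per library, in vitro left of in vivo, with the mean as a line and the SD as a bar (n = 3 each, bars may pass below 0). Naf1 and Atrx lie higher and Wrap53 lower in all 3 in vitro libraries, and the other 5 genes overlap between the groups.

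The ATPase genes Ruvbl1 and Ruvbl2, whose products form 1 complex that acts in telomerase assembly in human cells, differed from each other in pattern. Ruvbl2 was at 18.3, 40.5 and 17.9 CPM in vitro and 78.9, 62.6 and 11.0 CPM in vivo, with the lowest value of all in in vivo replicate 3. Its log2 fold change was −0.99 ± 0.68 (adjusted p = 0.659, edgeR), and between −1.51 (in vitro replicate 2 left out) and −0.55 (in vivo replicate 1 left out). Of its 50-base words, 14.6% occur in other genes on the opposite strand, which the library kit does not mark. Ruvbl1 was at 20.2, 21.5 and 34.4 CPM in vitro and 24.2, 21.7 and 25.6 CPM in vivo. Of the 50-base words of Ruvbl1, 56.2% also occur in Gm5837, which had 142 to 417 counts in vitro and 630 to 872 counts in vivo, so the split of reads between these genes is uncertain. Shq1, a chaperone of dyskerin, averaged 13.1 ± 6.76 CPM in vitro and 10.98 ± 0.749 CPM in vivo (SD, n = 3 each).

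Among recombination genes, Atrx was higher in every in vitro library. ATRX is a chromatin remodeller that, with DAXX, places histone H3.3 at telomeres, and its loss accompanies recombination-based telomere upkeep in human tumours. Atrx was at 156, 105 and 100.8 CPM in vitro and at 33.2, 38.4 and 85.2 CPM in vivo. In vivo replicate 3 lay nearer to the in vitro libraries than to the other in vivo libraries. The log2 fold change was 1.21 ± 0.43 (unadjusted p = 0.0206, adjusted p = 0.415, edgeR) and 1.67 by limma-voom, which called it (adjusted p = 0.0423). DESeq2 gave an adjusted p of 0.182, and 0.00158 without in vivo replicate 3, in a fit that called 918 genes. Over all alternatives the adjusted p was 0.00158 to 0.869, and over those of edgeR 0.160 to 0.869. Atrx spans bases 105797615 to 105929372 of chromosome X, minus strand. It shares 5.63% of its exon bases with Gm14853 on the same strand. In vitro replicate 2, the only library without a Y chromosome signal, had 105 CPM of Atrx, between the other in vitro libraries. Dkc1 and Suv39h1, a gene outside the set, are also on chromosome X. Their highest in vitro values were in that library, at 127 and 40.0 CPM. Dkc1 was higher still in in vivo replicate 3, at 152 CPM. Gnl3l, also on chromosome X and outside the set, went the other way, at 92.2, 51.5 and 76.1 CPM in vitro, lowest in replicate 2. The part of embryo sex in these values was not tested.

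Daxx, the histone chaperone that works with ATRX, overlapped between the groups at 23.2, 20.2 and 16.2 CPM in vitro and 18.04, 10.9 and 15.1 CPM in vivo. The CPM ratio of Atrx to Daxx was 6.73, 5.22 and 6.22 in vitro and 1.84, 3.52 and 5.64 in vivo, with in vivo replicate 3 inside the in vitro range of this ratio.

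The helicase genes did not separate the groups. Rtel1, which unwinds telomere loops, was at 14.6, 25.1 and 37.0 CPM in vitro and 17.0, 29.1 and 25.1 CPM in vivo (log2 fold change 0.11 ± 0.48, adjusted p = 0.963, edgeR). With scaling by totals alone this value was −0.18, where the median of all genes was −0.31. Blm averaged 23.5 ± 8.16 CPM in vitro and 18.2 ± 1.25 CPM in vivo (SD, n = 3 each). Wrn, the gene mutated in Werner syndrome, was lower, with 44, 44 and 13 counts in vitro and 24, 12 and 0 counts in vivo. Its log2 fold change of 2.14 ± 1.55 had the largest size and a wide error (adjusted p = 0.680, edgeR).

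Of the strand-annealing and strand-exchange genes, Rad52 was at 31.3, 6.83 and 3.27 CPM in vitro and 4.08, 6.57 and 1.44 CPM in vivo, and its log2 fold change of 1.77 ± 0.98 was 0.34 without in vitro replicate 1 (adjusted p with all libraries 0.585, edgeR). Rad54l, a motor protein of homologous recombination, was at 1.58, 13.4 and 1.83 CPM in vitro and 17.0, 10.7 and 22.2 CPM in vivo. In vitro replicate 2 alone reached the in vivo range. The log2 fold change of −1.55 ± 0.90 (adjusted p = 0.595, edgeR) was −3.29 without that library (adjusted p = 0.282, edgeR). DESeq2 then called Rad54l (adjusted p = 0.00123, in a range of 0.00123 to 0.887 over all alternatives), in a fit that called 855 genes. Rad54l shares 21.4% of its exon bases with Lrrc41 on the opposite strand, and the library kit does not mark strand, so reads of these genes cannot be told apart there.

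The break sensor MRE11-RAD50-NBN was present in all libraries. Rad50 averaged 27.0 ± 4.07 CPM in vitro and 19.0 ± 8.04 CPM in vivo, Mre11a 15.2 ± 4.29 CPM in vitro and 14.7 ± 5.00 CPM in vivo, and Nbn 9.24 ± 0.971 CPM in vitro and 7.01 ± 3.63 CPM in vivo (SD, n = 3 each). Among the nuclease genes, Slx4 had 43, 140 and 78 counts in vitro and 151, 165 and 7 counts in vivo. Eme1 had 1, 60 and 51 counts in vitro and 103, 147 and 0 counts in vivo, and Mus81, its catalytic partner, had 19, 35 and 30 counts in vitro and 55, 47 and 120 counts in vivo. In vivo replicate 3 had the fewest counts of Slx4 and Eme1 and the most of Mus81.

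The tankyrases, enzymes that modify telomere proteins in human cells, had opposite signs. Tnks2 was at 228, 71.3 and 113 CPM in vitro and 55.6, 38.2 and 95.6 CPM in vivo, with overlap between in vitro replicate 2 and in vivo replicate 3. Its log2 fold change was 1.12 ± 0.50 (unadjusted p = 0.0530, adjusted p = 0.497, edgeR), and it was 0.55 without in vitro replicate 1. Tnks was at 17.9, 4.70 and 3.79 CPM in vitro and 6.04, 7.21 and 41.1 CPM in vivo. The log2 fold change of Tnks was −1.05 ± 0.93 (adjusted p = 0.746, edgeR). Leaving out in vivo replicate 3, the library with the high value, gave 0.41. The CPM ratio of Tnks2 to Tnks was 12.7, 15.2 and 29.7 in vitro and 9.21, 5.30 and 2.32 in vivo, higher in each in vitro library, a pair chosen after its values were seen from 8 such ratios. The other ratios overlapped between the groups, except that of Pot1a to Pot1b, which could not be formed in libraries without counts of Pot1b.

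Rif1, a regulator of replication timing and break repair, was at 92.7, 119.9 and 206 CPM in vitro and 55.9, 95.2 and 129 CPM in vivo (log2 fold change 0.58 ± 0.42, adjusted p = 0.682, edgeR). Without in vitro replicate 3 this value was 0.19. Parn, the nuclease that trims the end of telomerase RNA in human cells, was at 11.2, 22.9 and 3.14 CPM in vitro and 16.9, 15.1 and 39.8 CPM in vivo. The groups overlapped for both, and the log2 fold change of Parn was −0.94 ± 0.74 (adjusted p = 0.712, edgeR), and −0.35 without in vivo replicate 3. Smg6, a nuclease of nonsense-mediated decay related to yeast Est1, had 5 to 51 counts per library in vitro and 7 to 35 in vivo. It shares 25.8% of its exon bases with Hic1 on the opposite strand.

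**Figure D3:**
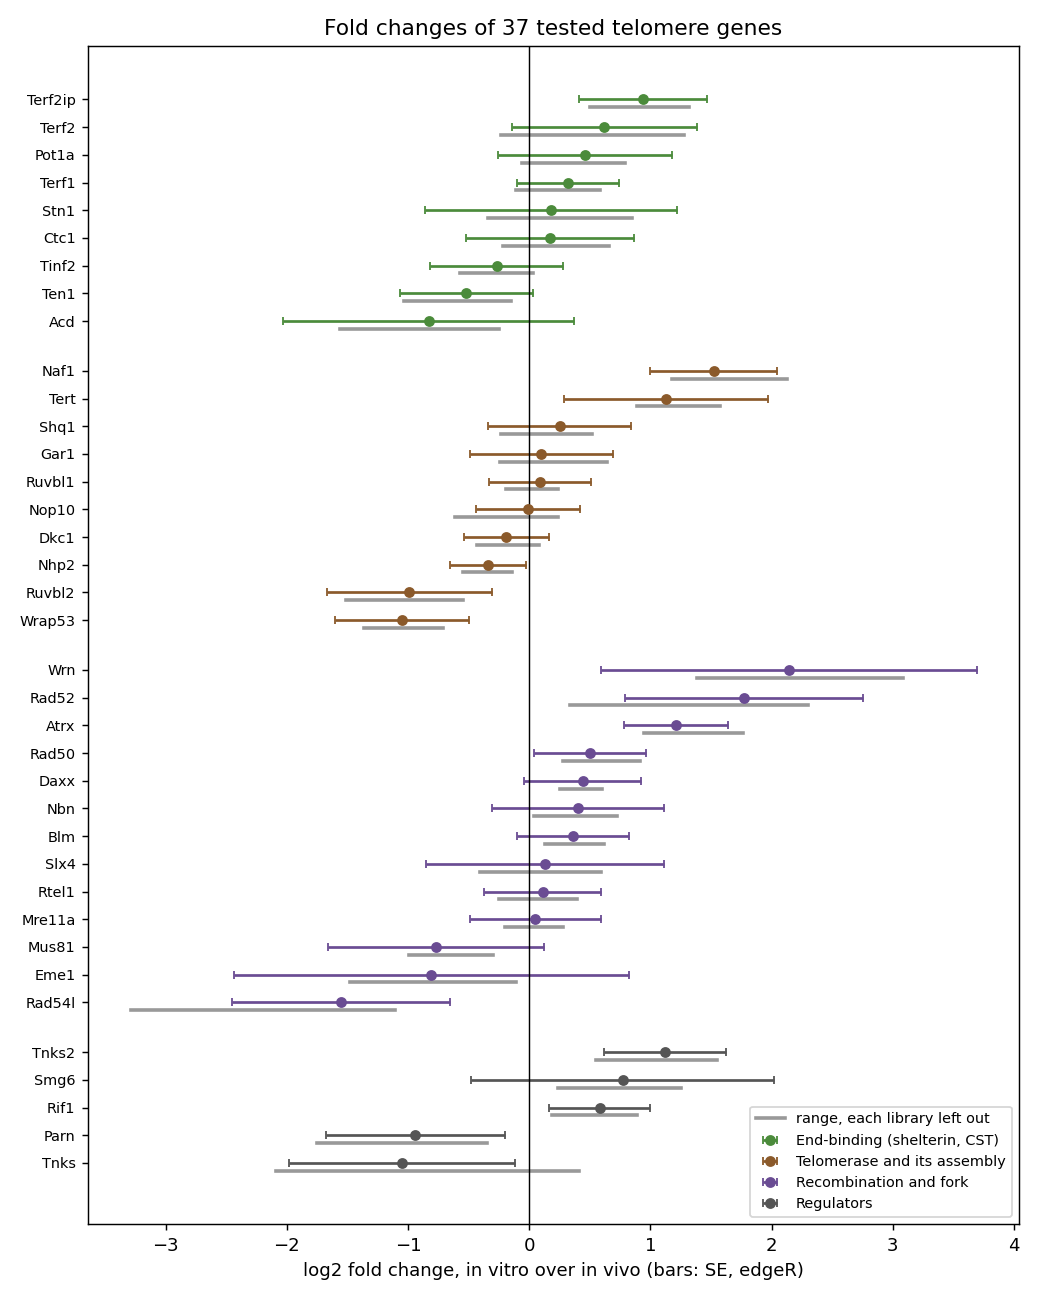
Points are log2 fold changes, in vitro over in vivo, with SE bars (edgeR), sorted within each role group, and grey lines show the range when each library is left out. None of the 37 genes passed the test over all genes, and the grey line crosses 0 for genes such as Terf1, Terf2, Pot1a and Tnks.

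The highest value of a member was most often in in vitro replicate 1. This library had the highest value of 14 of the 37 tested members, against 20.4% of all genes tested, and in vivo replicate 3 had the highest of 9 (20.8% of all genes) and the lowest of 10 (22.8% of all genes). In vitro replicate 2 had the highest of 2 (10.7% of all genes) and the lowest of 3 (7.87% of all genes). Median SDs of log2 CPM between replicates were 0.695 in vitro and 0.619 in vivo over the members, near 0.752 in vitro and 0.647 in vivo over all genes tested. In vivo replicate 3 had 0 counts for 4 of the 39 members, and no other library had more than 2. Over the whole table it also had the fewest genes with counts, 16977, despite the largest total. In vivo replicates 1 and 2 had 20867 and 20316 such genes, and the in vitro libraries 16996 to 20291. The part of this lower detection in the 0 counts of members was not tested.

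Longer members tended to have more positive log2 fold changes, as did long genes in general. Across the 36 tested members on 1 reference sequence the Spearman correlation between gene length and log2 fold change was 0.48, and across 13634 such genes it was 0.28. These are descriptions across genes of the same 6 libraries, and genes are not independent replicates. Of 25 members at or above the median length of all these genes, 19 were positive with a median of 0.40, against 61.8% positive and a median of 0.25 among all long genes. Of 11 shorter members, 4 were positive with a median of −0.34, against 37.8% and −0.27 among all short genes. Atrx, Rif1, Tnks2 and Wrn were among the long members with positive values, and Rad54l was a long member with a negative value. The part of length in the values of the role groups was not tested.

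**Figure D4:**
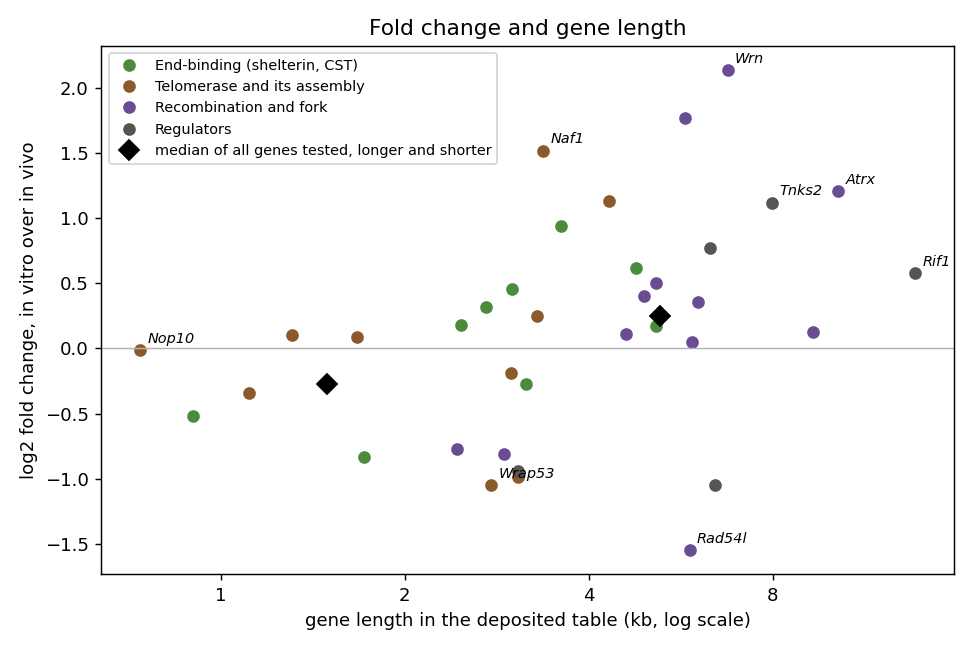
Each point is a tested member on 1 reference sequence, with gene length (kb, log scale) on the horizontal axis and log2 fold change, in vitro over in vivo, on the vertical axis, coloured by role. Black diamonds give the medians of all genes tested in the shorter (−0.27) and longer (0.25) classes, and 19 of the 25 members in the longer class lie above 0.

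Other genes of telomere upkeep gave no call either. Of 12 genes of telomerase RNA processing, 9 lay above 0 and 3 below (median log2 fold change 0.21), and 0 passed with edgeR, 0 with DESeq2 and 0 with limma-voom, with 0 at an unadjusted p below 0.05. Smn1 had the smallest p (log2 fold change −0.75 ± 0.35, adjusted p = 0.501, edgeR), followed by Nol10 (1.00 ± 0.59, adjusted p = 0.608, edgeR). The row of Smn1 lies on 2 reference sequences, so its level is uncertain, as for Pot1b and Daxx. Of 20 tested genes of telomere chromatin and other end factors, 12 were positive and 8 negative (median 0.33), 0 passed with any of the 3 tools and 3 had an unadjusted p below 0.05. These were Cbx1, a heterochromatin protein, at 142, 71.9 and 159 CPM in vitro and 52.9, 51.9 and 58.8 CPM in vivo, the histone methyltransferase gene Suv39h1 and the repeat-binding factor Hmbox1. Their adjusted p-values were 0.381, 0.450 and 0.470 (edgeR). The groups did not overlap in these 3 genes, higher in vitro, nor in Setdb1, lower in vitro, which makes 4 of 20 (20.0%), close to the 19.3% of all genes tested.

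Of 30 tested recombination and fork factors outside the set, 16 were positive and 14 negative (median 0.05), 0 passed with any of the 3 tools, and 2 had an unadjusted p below 0.05. These were Ercc4, a nuclease subunit that trims telomere overhangs, at 7.73, 29.7 and 61.8 CPM in vitro and 5.65, 13.6 and 6.83 CPM in vivo, and Brca1 at 39.3, 35.3 and 27.97 CPM in vitro and 17.2, 19.5 and 13.7 CPM in vivo. Their adjusted p-values were 0.440 and 0.452 (edgeR). Zscan4 genes, which lengthen telomeres in mouse embryonic stem cells, had hardly any counts, with Zscan4a, Zscan4b, Zscan4c and Zscan4d at 0 counts in all 6 libraries. They are closely related copies, and reads that match several may have been left out in counting. Of that list of 11 genes, 2 could be tested, with 0 called by edgeR, DESeq2 or limma-voom and both at an unadjusted p below 0.05. Tbx3 had a log2 fold change of 1.08 ± 0.46 and Dppa3 of −1.02 ± 0.40 (adjusted p = 0.479 and 0.440, edgeR).

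Sirt6, the deacylase named in the series title, had lower values in every in vitro library. It was at 18.6, 24.0 and 19.1 CPM in vitro and at 56.8, 80.1 and 49.1 CPM in vivo, with a log2 fold change of −1.59 ± 0.37 (adjusted p = 0.315, edgeR). DESeq2 called it on all libraries (adjusted p = 0.0106) and in 3 of 6 fits that left out 1 library, losing it without in vivo replicate 1, in vivo replicate 2 or in vitro replicate 1, and limma-voom did not call it (adjusted p = 0.0684).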

How the data were processed

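Per the labels' protocols, total RNA was taken with a microextraction kit and libraries were made with TruePrep V2, a transposase kit, which keeps no strand information. The deposited table holds raw counts per gene from the authors, 1 column for each library. GRCm39, FastQC (version 0.11.2) and DESeq2 are named in the submitters' processing notes, but starts and ends in the table equal those of RefSeq on GRCm38.p6 for 49975 of 49993 genes and for all 39 members, so GRCm38 coordinates are given. No source used here gives the aligner or counter. Of the genes, 2056 lie on more than 1 reference sequence in the table.

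The deposited counts went unchanged into edgeR 4.0.16 under R 4.3.3 (filter by group leaving 14301 genes, TMM scaling, robust legacy quasi-likelihood F-test, two-sided, Benjamini-Hochberg threshold 0.05). The common biological coefficient of variation was 0.727. CPM used TMM-scaled totals. TPM used the table's gene lengths and all rows, ribosomal RNA included, without TMM scaling. Standard errors were derived from the F statistic. DESeq2 1.42.0 and limma 3.58.1 were alternatives. All 3 tools were tested on simulated data.

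A count of 0 allows 0.216 to 0.527 CPM (3 counts), and intervals cover counting error only. Shared 50-base words were counted in GENCODE M21 transcripts, the longest per member, on both strands. Members with such words included Ten1 (9.5%, opposite strand), Eme1 (8.27%, opposite strand) and Mus81 (9.22%, same strand). Lists of marker and other telomere genes were matched by symbol or RefSeq synonym. Members and lists were chosen with earlier results of these data known. Named with full values were 9 main genes, members called by any tool or without overlap, and the 3 of smallest p in each role. Tnks, Acd, Stn1, Ctc1, Wrn, Slx4, Eme1, Mus81, Daxx and Ruvbl1 were added after their values were seen.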

Additional observations from a re-analysis of the deposited data

How the results depend on the processing

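No telomere gene was called in any edgeR alternative or by DESeq2 on all 6 libraries. Over all genes edgeR called 391 without a filter and 3 in its newer form, DESeq2 called 473 and limma-voom 102, of which 1, Atrx, is a member. DESeq2 with each library left out, added after the data were seen, called 152 to 918 genes and 0 to 3 members. The members were called in the fits with the most calls over all genes. These were Naf1, Atrx and Pot1b without in vivo replicate 3 (918 genes called) and Rad54l without in vitro replicate 2 (855 genes called). Scaling by totals alone shifted the median of all genes to −0.31. It gave medians of −0.27 for telomerase and −0.04 for recombination genes, and −0.09, −0.06 and −0.27 for RNA processing, chromatin and fork lists. It reversed Terf1 (−0.04), Ctc1 (−0.01), Stn1 (−0.28), Gar1 (−0.08), Shq1 (−0.08), Ruvbl1 (−0.23), Rtel1 (−0.18), Mre11a (−0.20), Nbn (−0.04) and Slx4 (−0.36). Limma-voom reversed Stn1 (−0.36), Dkc1 (0.09) and Slx4 (−0.19) and gave a median of 0.05 for RNA processing genes. Nop10 was 0.0049 with DESeq2's size factors and 0.0024 with DESeq2. Regulators had a median of −0.19 under the stricter filter, with fewer genes tested. Leaving out each library in edgeR and DESeq2 gave medians of −0.24 to 0.21 for end-binding, −0.17 to 0.22 for telomerase and −0.08 to 0.22 for fork genes, and 0 to 3 calls in the other lists. It reversed Terf1 (−0.11 to 0.62), Terf2 (−0.24 to 1.29), Tinf2 (−0.57 to 0.05), Pot1a (−0.06 to 0.79), Ctc1 (−0.24 to 0.67), Stn1 (−0.34 to 0.87), Dkc1 (−0.43 to 0.08) and Nop10 (−0.61 to 0.24). It also reversed Gar1 (−0.24 to 0.65), Shq1 (−0.24 to 0.53), Ruvbl1 (−0.19 to 0.24), Rtel1 (−0.25 to 0.40), Mre11a (−0.20 to 0.28), Slx4 (−0.42 to 0.61) and Tnks (−2.10 to 0.42). The cause of these reversals was not tested. Same-numbered libraries did not deviate together from their group means (correlations −0.099, 0.096 and −0.044). With 3 libraries in each group these correlations cannot show whether the numbers pair the libraries. With the replicate number as a block edgeR called 0 genes, the median of the members was 0.22, and Ctc1 was −0.07. Terc and Pot1b fell below edgeR's filter on low counts, and without it their adjusted p-values were 0.721 and 0.417.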
